A study of Mus musculus with 18 samples.

Results

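The osteoblast lineage genes described here are 8 genes of bone formation, Runx2, Sp7, Dlx5, Dlx6, Alpl, Ibsp, Bglap and Phex. They were taken by gene symbol from the 54446 gene identifiers counted in every library, and all 8 were found. RNA was measured by sequencing in 18 libraries of mouse embryoid bodies (clumps of embryonic stem cells left to differentiate in suspension), in 6 groups of 3. In the Mettl14 line the groups were the conditional knockout (CKO) of Mettl14 with 5 µM GSK343, the CKO, and a control. In the Mettl3 line they were the CKO of Mettl3 with 5 µM GSK-J4, the CKO, and a control. All groups were of the C57BL/6 strain and were taken after 7 days of differentiation, the CKO cells without an inhibitor having been given DMSO. METTL14 and METTL3 form the enzyme that places N6-methyladenosine on mRNA, GSK343 inhibits the H3K27 methyltransferase EZH2, and GSK-J4 inhibits the H3K27 demethylases KDM6A and KDM6B. The sources used here do not give how the deletion was induced, what the controls received or how many clones made up each line. One stated question is whether inhibiting a histone methyltransferase alters the expression changes of the Mettl14 knockout. Nothing in the labels says that replicates were separate cultures, so p-values measure only the spread between these libraries, which may be technical.

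Osteoblasts are the cells that lay down and mineralise bone matrix. RUNX2 is the transcription factor that commits mesenchymal cells to the lineage, and SP7 (osterix) acts after it and is needed for bone to form at all. DLX5 and DLX6 are homeobox factors encoded side by side, which act in skeletal, craniofacial and forebrain development. ALPL is the alkaline phosphatase that hydrolyses the mineralisation inhibitor pyrophosphate, IBSP (bone sialoprotein) is a matrix protein that nucleates mineral, BGLAP (osteocalcin) is made by mature osteoblasts, and PHEX is a membrane endopeptidase of osteoblasts and osteocytes that governs phosphate balance.

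Total counts were 721853 to 20714764 with GSK343, 1303697 to 8688596 in the Mettl14 CKO and 8288902 to 10285737 in its control. They were 3395675 to 8289423 with GSK-J4, 17544904 to 32540164 in the Mettl3 CKO and 21615674 to 29496824 in its control. The GSK-J4 libraries stood apart, with 0.678 to 0.957% of their counts from mitochondrial genes, against 3.06 to 4.87% in the other 15. The lowest Spearman correlation between libraries of the group was 0.801 with GSK-J4, against 0.898 or more in the other groups. Summed pluripotent cell markers (Pou5f1, Nanog, Zfp42, Dppa5a, Tdgf1, Esrrb and Sox2) were 1.56 to 3.26 CPM (counts scaled to a library total of 1000000) in the Mettl14 control and 1.02 to 7.74 CPM in the Mettl3 control. Mettl14 had 18.6 ± 3.90 CPM in its CKO and 17.3 ± 0.643 CPM in its control, and Mettl3 had 17.0 ± 9.56 CPM in its CKO and 24.1 ± 8.24 CPM in its control (SD, n = 3 each). The libraries of CKO and control overlapped for both genes. The sources used here do not name the deleted exons, so counts over the whole gene do not check the deletion.

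Promoter sequence is shown for 3 members of unlike level, Runx2 (counted in every library), Alpl (high in 1 line) and Bglap (near 0 throughout). No promoter entry was available for Sp7, Dlx5 and Dlx6, which were not searched. Each is the 250 bases before the gene's start in RefSeq's GRCm38.p6 annotation, 5′ to 3′ on the gene's strand. Capitals mark ACCACA, the core of the site that RUNX factors bind, which was searched on both strands.
Runx2: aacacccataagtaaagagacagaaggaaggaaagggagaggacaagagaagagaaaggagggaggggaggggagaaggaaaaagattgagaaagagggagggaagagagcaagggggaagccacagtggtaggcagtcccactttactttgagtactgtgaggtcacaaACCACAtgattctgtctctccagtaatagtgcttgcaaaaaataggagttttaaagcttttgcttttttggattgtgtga
Bglap: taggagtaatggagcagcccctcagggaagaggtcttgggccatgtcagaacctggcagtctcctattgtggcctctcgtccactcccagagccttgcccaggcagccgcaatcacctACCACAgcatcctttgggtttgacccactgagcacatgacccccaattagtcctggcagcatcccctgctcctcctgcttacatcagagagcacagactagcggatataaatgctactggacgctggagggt
Alpl: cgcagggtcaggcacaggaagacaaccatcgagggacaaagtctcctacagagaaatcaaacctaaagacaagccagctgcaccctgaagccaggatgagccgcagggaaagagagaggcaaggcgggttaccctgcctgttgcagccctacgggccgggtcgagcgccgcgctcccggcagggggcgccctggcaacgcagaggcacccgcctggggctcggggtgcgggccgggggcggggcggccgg
The Runx2 window is chr17:44814628-44814877, the Bglap window chr3:88384467-88384716 and the Alpl window chr4:137796385-137796634, all on the minus strand. The core was found 1 time in the Runx2 window, 80 bases before the start, and 1 time in the Bglap window, 132 bases before it. It was not found in the Alpl window shown, in that of the second Alpl start, or in those of Ibsp and Phex. Of 32851 such windows over all genes, 4614 (14%) held the core. The Alpl window shown held 20 CpG dinucleotides and that of the second Alpl start 4, against a median of 6 over all windows. The Runx2 window held 0 and the Bglap window 4. Counts per gene do not show which Alpl start was used. Such a match describes letters and is not a measured site.

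Per kilobase of merged exons, which allows genes to be compared, Runx2 was among the highest members in each group, and the rank of Alpl depended on the line. In the Mettl14 control Alpl had 15.8 ± 0.804 CPM per kilobase, Runx2 4.44 ± 0.985, Sp7 1.55 ± 0.232 and Ibsp 1.08 ± 0.613 (SD, n = 3). Alpl stood above Runx2, and Runx2 above Sp7, with no overlap of libraries, while Sp7 and Ibsp overlapped. In the Mettl3 control the order was Runx2 at 4.96 ± 1.28 CPM per kilobase, Sp7 at 3.65 ± 1.45, Ibsp at 3.64 ± 3.37, Dlx5 at 0.974 ± 0.184 and Alpl at 0.477 ± 0.405 (SD, n = 3). There Runx2, Sp7 and Ibsp overlapped one another, Dlx5 lay below all 3, and Dlx5 and Alpl overlapped. Bglap and Phex were under 0.5 CPM per kilobase on average in all 6 groups.

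**Figure D1:**
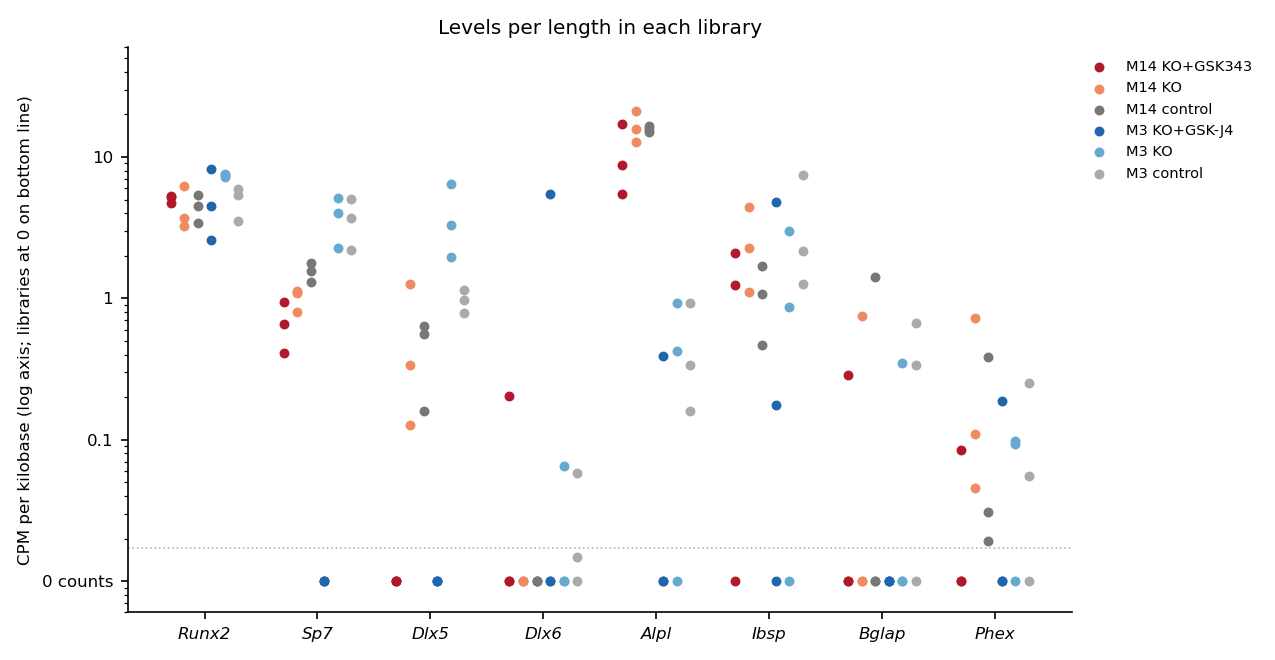
Level of each member in each of the 18 libraries in CPM per kilobase of merged exons (log axis), with libraries at 0 counts on the bottom line. Runx2 has counts in all 18 libraries, Alpl separates the 9 Mettl14-line libraries from the 9 Mettl3-line libraries, and Sp7 and Dlx5 lie on the bottom line in the 3 GSK-J4 libraries.

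Runx2 (ENSMUSG00000039153.16, chr17:44495987-44814797, minus strand, mm10) was counted in every library, from 22.9 to 73.0 CPM with a median of 46.3, and no comparison called it. In the Mettl14 line it had 45.8, 46.9 and 41.6 CPM with GSK343, 32.8, 28.9 and 55.2 CPM in the CKO, and 30.3, 47.7 and 39.9 CPM in the control. These groups overlapped, and the fitted log2 fold change was 0.07 ± 0.31 (SE) for CKO over control, with an interval of 2 SE from -0.56 to 0.69.
In the Mettl3 line Runx2 had 73.0, 39.7 and 22.9 CPM with GSK-J4, 63.9, 66.6 and 66.0 CPM in the CKO, and 52.8, 31.1 and 47.5 CPM in the control. Every CKO library lay above every control library, and 6.84% of the genes tested showed that pattern. The fitted log2 fold change of CKO over control was 0.56 ± 0.39 (SE; adjusted p = 1). With GSK-J4 against the CKO it was -0.76 ± 0.40 (SE; adjusted p = 0.229), and the GSK-J4 libraries spread on both sides of the CKO in plain CPM, while all 3 lay below it after TMM scaling, as for 22.8% of genes. Without GSK-J4 replicate 1, the highest of that group, the value was -1.40 with an adjusted p of 0.0214. An antisense gene, Runx2os1, shares 519 exon bases with Runx2, and the strand setting of the counting is not given. Runx2os1 had at most 80 counts in a library. Reads in the shared bases may have been dropped for both genes, so that count does not size the effect on Runx2.

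Sp7 (ENSMUSG00000060284.7, chr15:102356606-102367182, minus strand, mm10) had no count in any GSK-J4 library, and this fall passed the test against both other groups of the line. Its level was 0, 0 and 0 CPM with GSK-J4, 13.7, 7.75 and 17.4 CPM in the Mettl3 CKO, and 17.3, 12.5 and 7.43 CPM in the control. A floor of 3 counts in a library is 0.362 to 0.883 CPM at the depth of these 3 libraries. Against the highest of these floors, Sp7 was at least 14.7-fold lower with GSK-J4 than in the CKO (adjusted p = 0.00161) and at least 14-fold lower than in the control (adjusted p = 0.00178). Both calls were kept in all 11 other settings tried, with adjusted p of at most 0.0295 and 0.0346. Of all genes tested in this line, 8.74% had no count with GSK-J4. In bulk RNA, fewer cells of a type and less RNA per cell cannot be told apart.
The Mettl3 CKO and its control did not differ in Sp7 beyond their spread, with a log2 fold change of 0.05 ± 0.75 (SE; interval of 2 SE from -1.46 to 1.56). In the Mettl14 line Sp7 had 2.22, 3.19 and 1.39 CPM with GSK343, 3.68, 2.72 and 3.84 CPM in the CKO, and 5.31, 4.45 and 6.03 CPM in the control. The 1.39 CPM was 1 count, in a library whose floor of 3 counts was 4.16 CPM, close to the lowest control value. The 3.84 CPM was 5 counts, in a library with a floor of 2.30 CPM. Every library of the CKO, and every library with GSK343, lay below every control library. Groups were separated in that direction for 7.05% of genes in CKO against control and for 6.82% with GSK343 against control. Neither difference passed the test, at -0.53 ± 0.76 for the CKO and -1.09 ± 0.77 with GSK343 (log2 over control, SE; adjusted p = 1.00 for both). The 3 Mettl14 control libraries lay below the 3 Mettl3 control libraries, as for 10.6% of genes, and this difference of -1.17 ± 0.69 (log2, SE) did not pass either (adjusted p = 1).

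Dlx5 (ENSMUSG00000029755.10, chr6:6877805-6882085, minus strand, mm10) also had no count with GSK-J4. Its level was 0, 0 and 0 CPM with GSK-J4, 7.47, 14.6 and 4.45 CPM in the Mettl3 CKO, and 2.22, 2.61 and 1.78 CPM in the control. Against the highest floor it was at least 10.02-fold lower with GSK-J4 than in the CKO (adjusted p = 0.00902) and at least 2.49-fold lower than in the control (adjusted p = 0.0234). The call against the CKO was kept in all 11 other settings, with an adjusted p of at most 0.04999, reached without CKO replicate 2. The call against the control was lost when any 1 control library was left out (adjusted p = 0.0654 without replicate 1, 0.0738 without replicate 2 and 0.0752 without replicate 3) and when only the 2 groups were fitted (0.0699).
Every Mettl3 CKO library had more Dlx5 than every control library, which was so for 6.84% of genes, and the log2 fold change of 1.99 ± 1.14 (SE) did not pass (adjusted p = 1). In the Mettl14 line Dlx5 rested on few reads, with 0, 0 and 0 counts with GSK343, 25, 2 and 1 counts in the CKO and 12, 3 and 13 counts in the control. The GSK343 group was the lowest, but the floor of its shallowest library was 4.16 CPM, above every level of the line, so no fold is given (adjusted p = 0.588 against the CKO).
Dlx6 (chr6:6863334-6868568, plus strand, mm10) was counted in 5 of the 18 libraries and was not tested. It had 44 counts (13.0 CPM) in GSK-J4 replicate 1 and 0 in the other two GSK-J4 libraries, 5, 0 and 0 counts in the Mettl3 CKO and 3, 0 and 1 counts in its control. With GSK343 it had 10, 0 and 0 counts, and it had none in the Mettl14 CKO or control. The high library was thus a single one, in a group without any count of the neighbouring Dlx5. The antisense gene Dlx6os1 had 10 counts in 1 library, Mettl3 control replicate 1. Another antisense gene, Dlx6os2, shares 104 exon bases with Dlx6 and had at most 1 count in a library.

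Alpl (ENSMUSG00000028766.10, chr4:137741733-137796384, minus strand, mm10) differed mainly between the lines. It had 64.1, 60.4 and 66.9 CPM in the Mettl14 control, against 0.648, 1.36 and 3.77 CPM in the Mettl3 control. All 3 Mettl14 control libraries lay above the others, as for 8.05% of genes. The log2 fold change was 5.09 ± 0.94 (SE; adjusted p = 0.00514), and all 11 other settings called it, with adjusted p of at most 0.0480. Across all 9 libraries of each line Alpl ran from 22.1 to 84.8 CPM in the Mettl14 line and from 0 to 3.77 CPM in the Mettl3 line, with no overlap. Line, clone and any difference in when or how the lines were handled cannot be told apart.
Within the Mettl14 line Alpl had 22.1, 35.7 and 69.3 CPM with GSK343 and 63.8, 84.8 and 51.4 CPM in the CKO, which overlapped the control. The highest GSK343 value came from the shallowest library, where Alpl had 50 counts. The log2 fold change with GSK343 against the CKO was -0.87 ± 0.34 (SE; adjusted p = 0.750). Without the shallowest library of each of the 2 groups it was -1.44, with an adjusted p of 0.108. In the Mettl3 line Alpl had 0, 1.57 and 0 CPM with GSK-J4, 1.72, 0 and 3.73 CPM in the CKO, and the control values above, and nothing was called.
Markers of other cell types also differed between the controls, and their part in the Alpl difference was not tested. Between the controls edgeR called 0.76% of all genes higher and 0.913% in all, to be read beside each list count. Of 3 osteoclast markers tested, 1 was called, Mmp9, a gelatinase that other cells also make, which had 1449 ± 222 CPM in the Mettl14 control and 4.18 ± 2.68 CPM in the Mettl3 control (SD, n = 3 each). The other two did not pass: Ctsk, the osteoclast protease cathepsin K, had 349 ± 67.6 CPM in the Mettl14 control and 299 ± 69.5 CPM in the Mettl3 control, and Acp5, the tartrate-resistant phosphatase, had 1.65 ± 1.40 CPM in the Mettl14 control and 4.90 ± 2.36 CPM in the Mettl3 control (SD, n = 3 each). Calcr, the calcitonin receptor, was at 0 in both controls. The 5 osteoclast markers summed to 1603 to 2131 CPM in the Mettl14 control and 231 to 373 CPM in the Mettl3 control.
Chondrocyte markers summed to 77.9 to 104 CPM in the Mettl14 control and 194 to 295 CPM in the Mettl3 control, and 1 of 8 tested was called lower, the cartilage collagen Col2a1 (adjusted p = 0.0211). Of those 8, 3 had a log2 fold change above 0. Adipocyte markers summed to 250 to 267 CPM in the Mettl14 control and 121 to 230 CPM in the Mettl3 control, and 1 of 4 was called higher, the fatty acid binding protein Fabp4 (adjusted p = 0.0183). Only 2 of the 4 had a log2 fold change above 0. Pparg had 3.87 ± 1.28 CPM in the Mettl14 control and 15.6 ± 6.72 CPM in the Mettl3 control (SD, n = 3 each). Cebpa had 11.3 ± 3.17 CPM in the Mettl14 control and 23.5 ± 6.12 CPM in the Mettl3 control (SD, n = 3 each). Of 22 osteoblast regulators and signals tested, 1 was called higher, the bone-inducing ligand Bmp2, at 173 ± 41.7 CPM in the Mettl14 control and 33.3 ± 6.56 CPM in the Mettl3 control (SD, n = 3 each; adjusted p = 0.00258). The share over all genes was 0.76% called higher and 0.913% in all.
With GSK343 the osteoclast markers summed to 615 to 1211 CPM, against 1398 to 2048 CPM in the Mettl14 CKO, and edgeR called 0 of the 3 tested (2 had an unadjusted p under 0.05). Over all genes in that comparison, 0.0288% were called and 5.74% had an unadjusted p under 0.05. On average most of the sum was Mmp9, at 594 ± 326 CPM with GSK343 and 1320 ± 192 CPM in the CKO (SD, n = 3 each). Ctsk had 239 ± 9.61 CPM with GSK343 and 416 ± 142 CPM in the CKO (SD, n = 3 each). Acp5 had 1.03 ± 1.12 CPM with GSK343 and 2.15 ± 1.19 CPM in the CKO (SD, n = 3 each), and Calcr was at 0 in both. The part of the osteoclast markers in the Alpl values was not tested.

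The late members were sparse. Ibsp (chr5:104299171-104311469, plus strand, mm10) had 10.01, 0.362 and 0 CPM with GSK-J4, 6.21, 0 and 1.79 CPM in the Mettl3 CKO, and 15.5, 2.61 and 4.46 CPM in the control. It had 4.34, 2.57 and 0 CPM with GSK343, 4.72, 2.29 and 9.20 CPM in the Mettl14 CKO, and 3.50, 0.963 and 2.24 CPM in the control. All groups of a line overlapped, and no comparison called it. In both lines the spread within a group was as wide as the differences between groups: the log2 fold change of CKO over control was 1.34 ± 0.95 in the Mettl14 line and -1.49 ± 1.88 in the Mettl3 line (SE), and their difference was 2.83 ± 2.12 (SE; adjusted p = 1.00).
Bglap (chr3:88383501-88384464, minus strand, mm10) was counted in 6 of 18 libraries, with at most 9 counts. It has near-identical copies, Bglap2 and Bglap3, between which the counting may have split or dropped reads. Bglap3 reached 4.03 ± 3.98 CPM with GSK-J4, against 0.0563 ± 0.0725 CPM in the Mettl3 CKO and 1.19 ± 1.13 CPM in the control (SD, n = 3 each), and Bglap2 stayed under 1 CPM in every library. Phex (chrX:157162075-157415312, minus strand, mm10) was counted in 12 libraries with at most 47 counts and was too low to test in the Mettl14 line. In the Mettl3 line its log2 fold changes were -0.36 ± 2.38 with GSK-J4 against the CKO and -0.71 ± 2.29 for the CKO against the control (SE), and the groups overlapped.

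**Figure D2:**
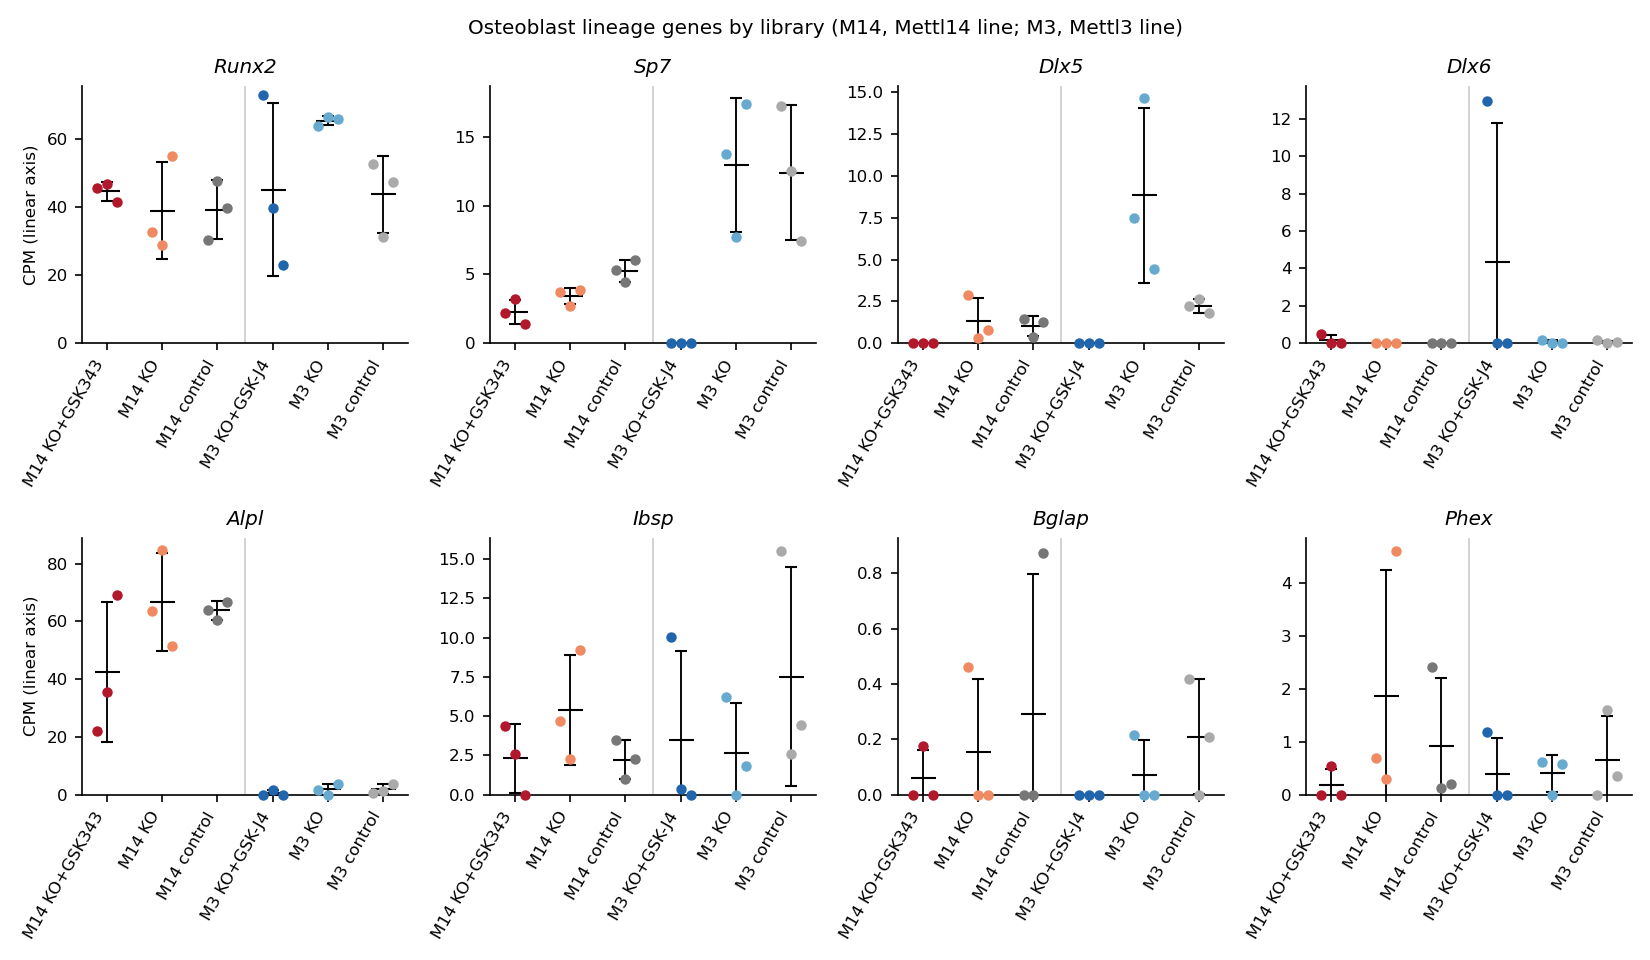
CPM of each of the 8 members in each library (points, linear axis), with the group mean and SD (bar), for the Mettl14 line (M14) and the Mettl3 line (M3). Sp7 and Dlx5 are at 0 in the 3 GSK-J4 libraries while Runx2 is present there at 22.9 to 73.0 CPM, and Alpl is at 22.1 CPM or more only in the M14 libraries.

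Of the 8 members, 5 were abundant enough to test in the Mettl14 line and 6 in the Mettl3 line and between lines. For CKO against control edgeR called 0 of 5 members in the Mettl14 line and 0 of 6 in the Mettl3 line, where 0% of all genes were called in either line; 0 members had an unadjusted p under 0.05, and DESeq2 also called 0. Of all genes, 208 (1.5%) in the Mettl14 line and 315 (1.88%) in the Mettl3 line had an unadjusted p under 0.05. DESeq2 called 0 genes in the Mettl14 line and 32 in the Mettl3 line. The groups of a line share their estimate of spread in these fits, so the GSK-J4 libraries enter the Mettl3 test. That spread (square root of edgeR's common dispersion) was 0.843 in the Mettl3 line and 0.394 in the Mettl14 line. Changes of a given size are thus harder to call in the Mettl3 line. The difference between the 2 knockout effects called 0 of 6 members, with 0% of all genes called, 366 (2.24%) at an unadjusted p under 0.05 and 20 called by DESeq2.
With GSK343, edgeR and DESeq2 called 0 of 5 members against the CKO and 0 of 5 against the control, where edgeR called 0.0288% and 0.166% of all genes. At an unadjusted p under 0.05 there were 2 members against the CKO (Dlx5 and Alpl), with 5.74% of all genes, and 1 against the control (Dlx5), with 4.34%. With GSK-J4, 2 of 6 members were called lower against the CKO, where 9.07% of all genes were called lower, 3.96% higher and 13% in all. Against the control 2 of 6 were called lower, or 1 of 6 without any 1 control library, where 8.25% of all genes were lower and 11.4% called in all. In the Mettl14 control over the Mettl3 control, 1 of 6 members was called higher, where 0.76% of all genes were higher and 0.913% called in all. The comparisons of a line share libraries, so the paired GSK-J4 counts are not independent.

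**Figure D3:**
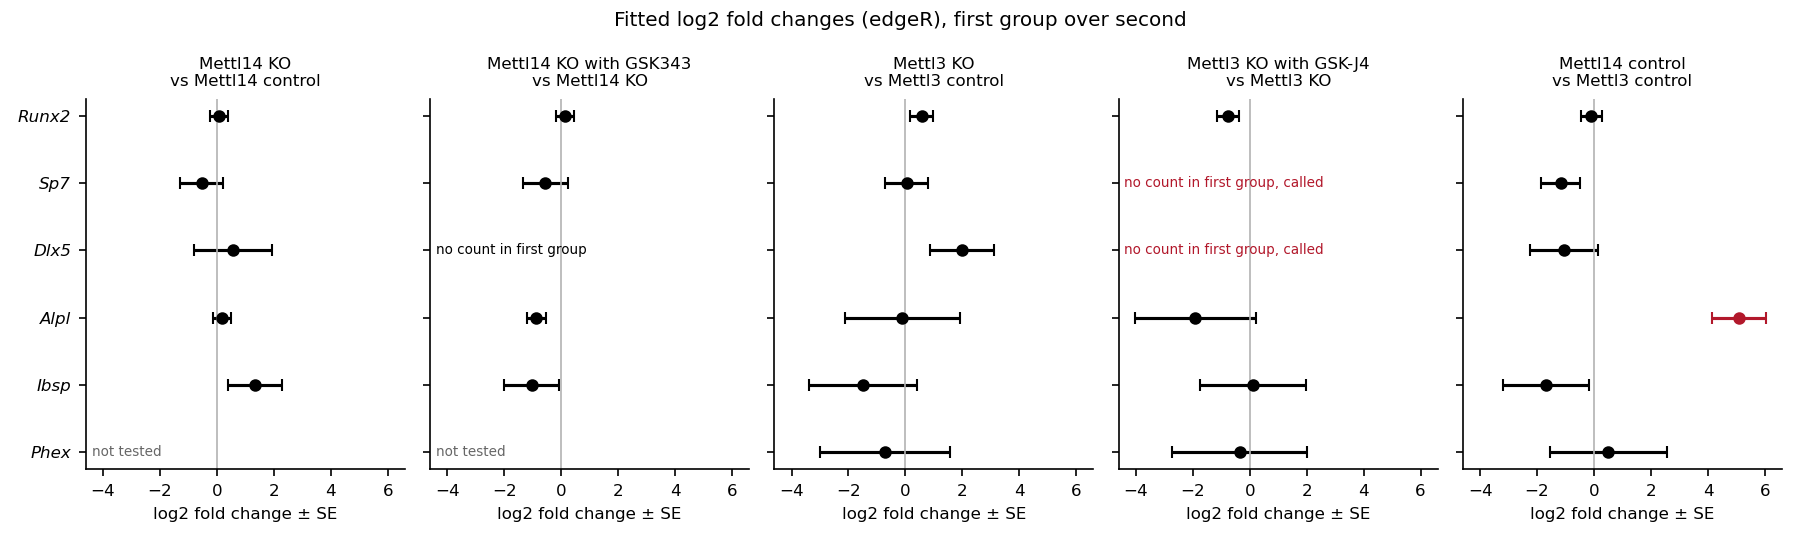
Fitted log2 fold change (first group named over the second) with its SE for the 6 members tested in 1 fit or more, in 5 comparisons, with called values in red. No member is called for either knockout, Sp7 and Dlx5 have no count with GSK-J4 and are called there, and Alpl is called between the controls at 5.09.

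Other genes that act in bone were read from lists of regulators and signals, matrix, mineralisation, osteocyte and osteoclast-coupling genes. The lists include genes that other cells also make, so a change in them is not particular to osteoblasts. In CKO against control, 0 genes of any of these lists were called by edgeR in either line, and 1 of 22 regulators was at an unadjusted p under 0.05 in the Mettl3 line, where 1.88% of all genes were, and 0 in the Mettl14 line. The osteocyte gene Sost, which had 54 counts in the Mettl3 CKO and 0 in its control, passed the low-count filter only through the CKO, so its p is not counted. The smallest p of the matrix list belonged to Bgn (biglycan, a matrix proteoglycan; log2 fold change -0.29 ± 0.22, SE) in the Mettl14 line and Fn1 (fibronectin; 0.59 ± 0.29) in the Mettl3 line. Among regulators it belonged to Twist1, a factor that restrains RUNX2 (-0.58 ± 0.36), in the Mettl14 line and to the BMP receptor Bmpr2 (0.50 ± 0.22) in the Mettl3 line.
With GSK-J4 against the Mettl3 CKO, 11 of 13 matrix genes tested were called lower and none higher, against 9.07% of all genes called lower. Their median log2 fold change was -3.69, against -0.06 for all genes tested, and -2.61 with genes at 0 counts set to their bound, against 0 for all genes. Col1a1, a chain of type I collagen, had 177 ± 84.0 CPM with GSK-J4 and 6447 ± 524 CPM in the CKO (SD, n = 3 each; log2 fold change -5.42 ± 0.33, SE; adjusted p = 4.92e-06). Serpinf1 (PEDF, whose loss causes brittle bone in humans), Col1a2 and Sparc (osteonectin) fell as well, at -4.00 ± 0.22, -5.41 ± 0.41 and -3.69 ± 0.28 (log2, SE).
Of 7 mineralisation genes, 5 fell, among them Mgp, a calcification inhibitor, and Enpp1, which makes pyrophosphate, at -5.69 ± 0.44 and -2.86 ± 0.43 (log2, SE). Those 2 act against mineral deposition, the opposite of Alpl. Ank and Slc20a1 were called lower as well, at -2.25 ± 0.46 and -0.76 ± 0.19 (log2, SE), and the list was not sorted by direction of action. Of 22 regulators and signals tested, 4 fell and 1 rose, to be read against the 9.07% of all genes called lower and 3.96% called higher in this comparison, as are the other lists here. The BMP antagonist Grem1 fell to 510 ± 84.1 CPM with GSK-J4, against 1442 ± 92.8 CPM in the CKO (SD, n = 3 each), Ctnnb1 (beta-catenin) fell by 1.49 ± 0.16 on the log2 scale (SE), and the parathyroid hormone receptor Pth1r had no count and was at least 24.2-fold lower. Atf4, a factor of the late osteoblast and of the amino acid stress response, was higher at 1.32 ± 0.20 (log2, SE; adjusted p = 0.00146).
Among 4 osteocyte genes tested, Dmp1, a matrix protein of osteocytes, and Dkk1, a Wnt antagonist, had no count and were called lower. The falls were at least 34.5-fold for Dmp1 and at least 3.38-fold for Dkk1. Sost was also among the 4, but it passed the low-count filter only through the CKO, so its p is not counted. Of the 3 genes through which osteoblasts act on osteoclasts, Csf1 was called higher, at 376 ± 154 CPM with GSK-J4 and 158 ± 9.99 CPM in the CKO (SD, n = 3 each), while Tnfsf11 (RANKL) had no count against 2.14 ± 1.29 CPM in the CKO and did not pass (adjusted p = 0.0505). Against the Mettl3 control these near-threshold calls differed: Tnfsf11 passed (adjusted p = 0.0454), and Csf1 (0.149) and Dkk1 (0.0676) did not.

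Markers of some other cell types were also called lower in the GSK-J4 libraries. Of all genes tested against the CKO, 9.07% were called lower and 3.96% higher, to be read beside each count. All 5 fibroblast markers fell, 4 of 9 chondrocyte, 3 of 4 adipocyte and 2 of 4 osteoclast markers tested fell, and 0 of 3 tenocyte, 0 of 2 skeletal muscle, 0 of 2 forebrain DLX neuron and 0 of 6 pluripotent cell markers were called against the CKO. The fibroblast markers (Col3a1, Pdgfra, Pdgfrb, Thy1 and Vim) summed to 1811 to 2200 CPM with GSK-J4, against 4962 to 5267 CPM in the CKO. The chondrocyte markers summed to 40.3 to 1848 CPM with GSK-J4, against 466 to 737 CPM in the CKO. Nearly all of the highest sum was Col10a1, the collagen of hypertrophic cartilage, at 1798 CPM in that library. Col10a1 averaged 726 ± 947 CPM with GSK-J4 and 223 ± 29.5 CPM in the CKO (SD, n = 3 each) and was not called, while Col2a1, Comp, Sox6 and Sox5 were called lower. The pluripotent cell markers summed to 0 to 100.0 CPM with GSK-J4, against 6.35 to 42.9 CPM in the CKO. The part of these cell types, and of the lower mitochondrial share, in the fall of Sp7 and Dlx5 was not tested.
Plain CPM of the GSK-J4 group ran 0.23 higher on the log2 scale, relative to the CKO, than the TMM-scaled values of the fits, so changes in the fits are measured against that shift.

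**Figure D4:**
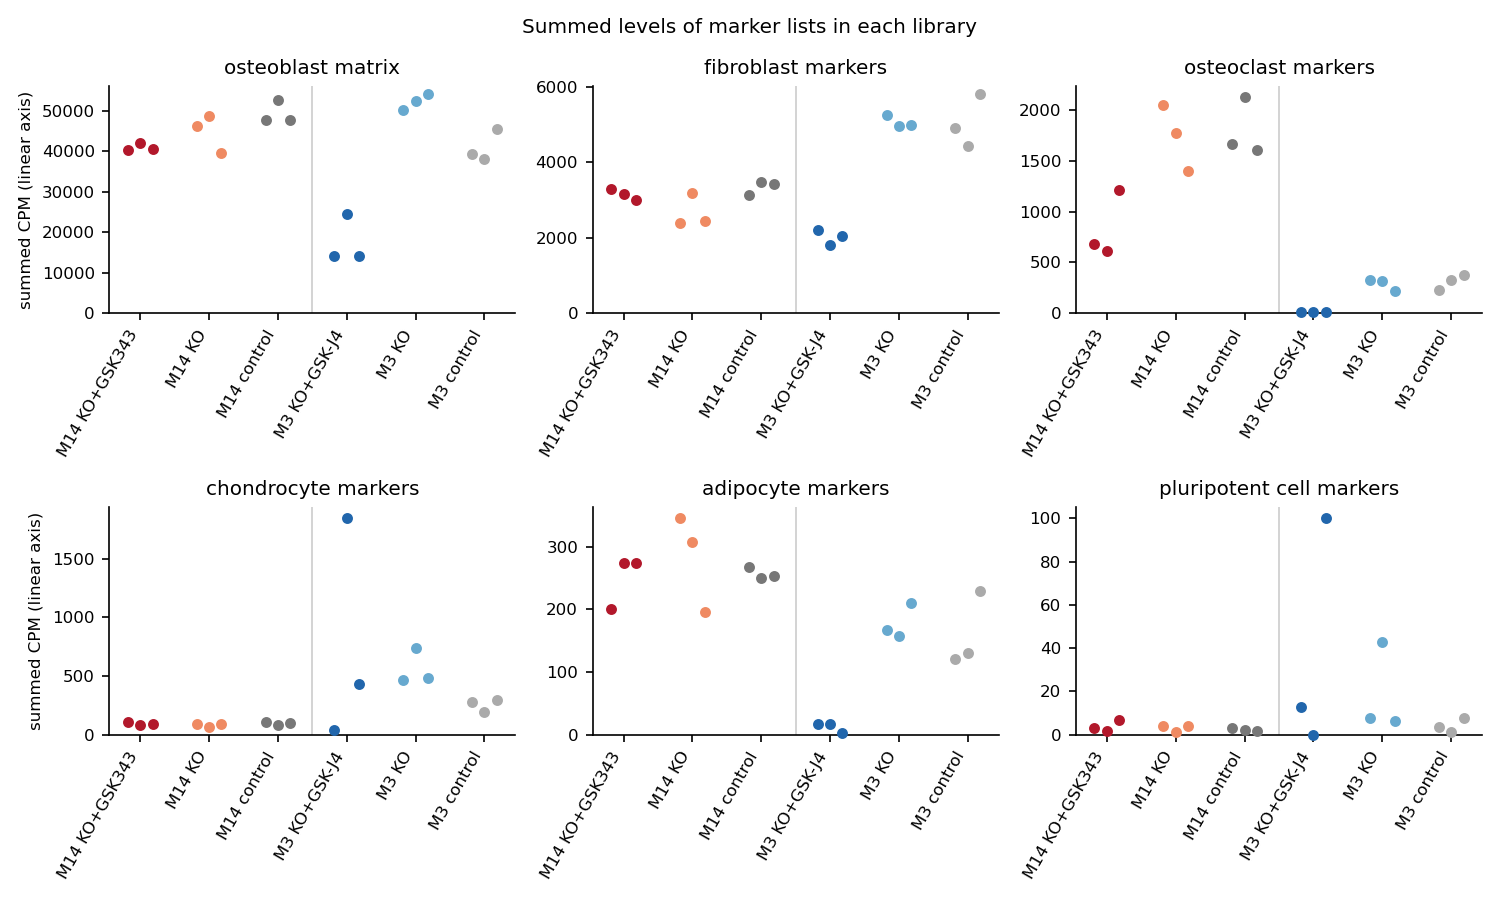
Summed CPM of 6 gene lists in each library (points, linear axis), for the Mettl14 line (M14) and the Mettl3 line (M3). Matrix sums are 14157 to 24566 CPM with GSK-J4 and 50331 to 54167 CPM in the Mettl3 CKO. On average Fn1 is most of the GSK-J4 sum, at 11599 ± 5008 CPM, against 14822 ± 1950 CPM in the CKO. Spp1 has 3016 ± 773 CPM with GSK-J4 and 15818 ± 896 CPM in the CKO (SD, n = 3 each). The osteoclast sum, mostly Mmp9 in the M14 control, separates the M14 control from the M3 control.

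Rbl2, a pocket protein of the cell cycle, was among the 3 protein-coding genes whose group pattern was most like that of Runx2. Likeness was the root mean square difference of the 6 group means on the log2(CPM + 0.5) scale after centring, 0.0836 for Rbl2, against a median of 0.516 over 13570 protein-coding genes. Rbl2 had 53.1 ± 22.7 CPM with GSK-J4, 71.0 ± 4.75 CPM in the Mettl3 CKO and 52.0 ± 5.13 CPM in its control (SD, n = 3 each).
The 3 most alike for Alpl were Chil1, a chitinase-like protein (0.329), Tlr2, a receptor for bacterial lipoproteins (0.385), and Zc3h12a, an endoribonuclease that degrades cytokine mRNA (0.463), against a median of 2.72. Tlr2 had 132 ± 12.6 CPM in the Mettl14 control and 7.31 ± 3.40 CPM in the Mettl3 control, and Chil1 had 150 ± 13.5 CPM in the Mettl14 control and 7.40 ± 4.34 CPM in the Mettl3 control (SD, n = 3 each). The 6 group means share the libraries, depth and scaling of the members themselves.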

How the data were processed

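PolyA RNA was sequenced from 18 mouse libraries prepared with a stranded total RNA kit, per the labels' protocols. The authors deposited whole-number read counts per gene, made with Trimmomatic 0.38, HISAT2 2.1.0 and HTSeq on mm10, per the submitters' processing notes. The sources used here give neither strand setting nor annotation release. Of 54446 identifiers, 54409 matched a GENCODE M21 name with the version dropped. From the deposited counts, edgeR 4.0.16 (filterByExpr, TMM, quasi-likelihood F test, Benjamini-Hochberg adjustment over all genes tested) was fitted to the 9 libraries of each line, and to all 18 for comparisons across lines. An adjusted p under 0.05 is a call. SE is the fold change divided by the square root of F. Levels are plain CPM. A fold against a group at 0 uses a floor of 3 counts per library, the highest floor of the group, and covers counting error only. Alternatives were DESeq2 1.42.0, its size factors within edgeR, all genes without the low-count filter, the replicate number as a block, only the groups compared, and each library left out. Leaving out the 2 shallowest Mettl14-line libraries was added after seeing the data. The fits were tested on simulated data. The members and lists were chosen with earlier results of these data known. Named genes are the 8 members, up to 4 genes of smallest p per list described, the 3 most alike genes of Runx2 and Alpl, and Bglap2, Bglap3, Dlx6os1, Dlx6os2 and Runx2os1. Col10a1, Fn1 and Spp1 with GSK-J4, Sost and Calcr were singled out after their values were seen. The other genes most like Runx2 are not reported here.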

Additional observations from a re-analysis of the deposited data

How the results depend on the processing

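Of the settings compared, 502 values kept their direction and side of the threshold, 33 reversed, 5 lost a call and 1 gained one. The calls of Sp7 with GSK-J4, of Dlx5 with GSK-J4 against the Mettl3 CKO and of Alpl between the controls were kept in every setting run. With the replicate number as a block, 1 member rather than 2 was called with GSK-J4 against the control (Dlx5 had an adjusted p of 0.0733), and likewise 1 with only the groups compared. The count of all genes called moved as follows, and the cause was not tested. For the Mettl14 CKO against control it was 15 without the low-count filter. For GSK343 against the CKO it was 1 with DESeq2's size factors, 50 without the filter, 57 with DESeq2, 1 with the replicate block and 2 without the 2 shallowest libraries, against 4. For GSK343 against the control it was 63 without the filter, 68 with DESeq2, 35 with only the groups compared and 37 without the 2 shallowest libraries, against 23. For the Mettl3 CKO against control it was 6 without the filter, 32 with DESeq2 and 2 with only the groups compared. For GSK-J4 against the CKO it was 4431 with DESeq2, 1407 with the replicate block and 977 with only the groups compared, against 2186, and for GSK-J4 against the control 4360, 1256 and 887, against 1916. The difference of knockout effects gave 13 without the filter, 20 with DESeq2 and 1 with only the control and CKO groups. The Mettl14 control over the Mettl3 control gave 280, 312 and 583 in those settings, against 149. Leaving out 1 library gave 0 to 7 calls for the Mettl14 CKO, 0 to 14 for GSK343 against the CKO, 4 to 28 against the control, 0 for the Mettl3 CKO and for the difference of effects, 1032 to 3061 for GSK-J4 against the CKO, 888 to 2798 against the control, and 89 to 112 between the controls. The low ends were 1032 without CKO replicate 1 and 888 without control replicate 3. Members called ran from 2 to 3 for GSK-J4 against the CKO (Runx2 was added without GSK-J4 replicate 1) and from 1 to 2 against the control. No called value reversed. Among uncalled log2 fold changes, Runx2 in the Mettl14 CKO was -0.27 without the 2 shallowest libraries, and with the block Alpl was 0.34 in the Mettl3 CKO, Ibsp -0.33 with GSK-J4 against the CKO and Phex -0.58 between the controls. With 1 library left out, the Mettl14 CKO against control ran from -0.28 to 0.26 for Runx2, -1.05 to 1.02 for Dlx5 and -0.021 to 0.28 for Alpl. GSK343 ran from -0.058 to 0.48 for Runx2 against the CKO and -0.29 to 0.74 for Ibsp against the control. The Mettl3 CKO ran from -0.21 to 0.34 for Sp7, -1.16 to 0.83 for Alpl and -1.29 to 1.14 for Phex. GSK-J4 ran from -4.04 to 1.68 for Ibsp and -6.16 to 0.27 for Phex against the CKO, and -6.87 to 0.80 for Phex against the control. The difference of effects ran from -0.69 to 1.24 for Alpl and -0.087 to 4.22 for Phex, and the controls from -0.29 to 0.074 for Runx2 and -1.92 to 2.34 for Phex. Libraries of the same replicate number correlated at -0.135 to 0.122 in the Mettl14 line and -0.0360 to 0.0572 in the Mettl3 line in their deviations from group means, so the numbers were not taken to pair samples. Depth limits the GSK343 group most, where 1 library had 721853 counts and a floor of 4.16 CPM. In that library Dlx5, Dlx6, Ibsp, Bglap and Phex had 0 counts and Sp7 had 1, so none of these could be resolved there.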
